A study of Mus musculus with 10 samples.

Results

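The genes described here were 43 mouse genes of epithelial cells: keratins, genes of adherens junctions, tight junctions and desmosomes, splicing and transcription factors of epithelium, receptor tyrosine kinases with 1 adaptor, a membrane serine protease with its inhibitors, and secreted or mucin genes. They were chosen by name as genes expected of carcinoma cells, with earlier results of these data known. All 43 were found among the 35275 genes of the deposited count table. Of these 43, 38 had enough counts to enter the test, as did 14729 of all genes. Krt5, Krt17, Krt20, Cdh3 and Dsc2 had too few.

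The libraries were made from 2/20 CTL, a wild-type mouse line of cytotoxic T cells kept with AH1 peptide, IL-2 and lethally irradiated BALB/c spleen cells. The 5 groups of 2 libraries each were co-culture with 4T1 cells for 4 h, the same for 24 h, AH1 peptide at 1 μg/mL for 4 h, the same for 24 h, and resting cells with no treatment. 4T1 is a mammary carcinoma line of BALB/c mice. Cells were recovered on anti-CD45 magnetic beads, CD45 being a surface protein of leukocytes, and polyadenylated RNA was sequenced. All groups, the resting cells included, therefore shared the weekly peptide, IL-2 and feeder cells, and no library of 4T1 cells alone was used here. The labels do not say whether paired libraries came from separate cultures, so p-values measure the spread between these libraries, which may be technical.

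Epithelial cells are held together in sheets. Keratins of type I and type II pair to form intermediate filaments, desmosomes anchor these filaments at the cell border, E-cadherin joins neighbours at adherens junctions, and claudins seal tight junctions. Cytotoxic T cells are leukocytes without such sheets, and their identity is carried by the T cell receptor complex and its signaling proteins.

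Libraries held 14104658 to 22910633 counts. The 17 T cell identity genes, among them Cd3e and Lck, summed to 3119 and 3261 CPM at 4 h of co-culture, 1374 and 1303 CPM at 24 h of co-culture, 15278 and 14816 CPM after peptide for 4 h, 4678 and 4326 CPM after peptide for 24 h, and 8836 and 9207 CPM at rest, where CPM is the TMM-scaled count relative to library size. T cell transcripts were thus present in every library, and lowest at 24 h of co-culture. The libraries also differed in genes of other cells: 13 B cell markers summed to 483 and 570 CPM after peptide for 4 h and 224 and 464 CPM after peptide for 24 h, against 0.788 to 1.70 CPM in co-culture and 3.97 and 4.46 CPM at rest. The part of these differences in the results on epithelial genes was not tested. In bulk RNA, fewer cells of a type and less RNA per cell cannot be told apart.

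Several genes of the list are neighbours, and 2 such pairs with at least 1 gene abundant in co-culture are described here. Krt8 (chr15:101996711-102004342, minus strand) and Krt18 (chr15:102028216-102032026, plus strand) lie 23.9 kb apart in mm10, and Cldn4 (chr5:134945126-134946934, minus strand) and Cldn3 (chr5:134986214-134987472, plus strand) lie 39.3 kb apart. Their RefSeq promoters (GRCm38.p6, the build also called mm10; 250 bases before to 50 after the start, 5′ to 3′ on the gene's strand) are printed with that of Krt5 (chr15:101707070-101712891, minus strand), which lies on the same chromosome as Krt8 and Krt18 at a distance of 284 kb from Krt8 and had 0 counts in co-culture. Capitals mark matches, on either strand, to 4 motifs: AACCNGTT (Grainyhead-like), CCGGAAG (ETS), GGGCGG (GC box) and TGANTCA (AP-1).
Krt8 promoter, chr15:102004293-102004592, minus strand: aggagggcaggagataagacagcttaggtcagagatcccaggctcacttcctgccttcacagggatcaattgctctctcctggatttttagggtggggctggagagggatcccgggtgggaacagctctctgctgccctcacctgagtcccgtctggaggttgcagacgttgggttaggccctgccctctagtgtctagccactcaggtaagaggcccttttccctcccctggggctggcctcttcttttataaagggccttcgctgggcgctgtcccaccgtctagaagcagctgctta
Krt18 promoter, chr15:102027966-102028265, plus strand: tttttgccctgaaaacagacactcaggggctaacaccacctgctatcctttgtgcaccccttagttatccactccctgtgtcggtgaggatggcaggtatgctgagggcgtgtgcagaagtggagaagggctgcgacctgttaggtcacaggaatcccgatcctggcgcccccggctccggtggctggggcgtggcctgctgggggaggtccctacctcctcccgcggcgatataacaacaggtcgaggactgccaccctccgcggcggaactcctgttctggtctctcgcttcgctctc
Krt5 promoter, chr15:101712856-101713155, minus strand: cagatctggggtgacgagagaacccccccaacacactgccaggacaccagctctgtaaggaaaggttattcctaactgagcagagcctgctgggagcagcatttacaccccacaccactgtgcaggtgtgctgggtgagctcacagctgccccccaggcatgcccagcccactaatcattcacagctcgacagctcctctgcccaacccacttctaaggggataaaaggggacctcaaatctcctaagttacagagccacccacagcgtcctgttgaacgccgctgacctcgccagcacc
Cldn4 promoter, chr5:134946885-134947184, minus strand: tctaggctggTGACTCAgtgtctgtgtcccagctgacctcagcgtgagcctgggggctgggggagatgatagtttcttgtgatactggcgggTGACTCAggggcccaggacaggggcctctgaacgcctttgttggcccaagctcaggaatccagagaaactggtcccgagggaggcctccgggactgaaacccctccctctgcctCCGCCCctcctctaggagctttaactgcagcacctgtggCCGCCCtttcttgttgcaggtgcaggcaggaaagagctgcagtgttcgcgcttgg
Cldn3 promoter, chr5:134985964-134986263, plus strand: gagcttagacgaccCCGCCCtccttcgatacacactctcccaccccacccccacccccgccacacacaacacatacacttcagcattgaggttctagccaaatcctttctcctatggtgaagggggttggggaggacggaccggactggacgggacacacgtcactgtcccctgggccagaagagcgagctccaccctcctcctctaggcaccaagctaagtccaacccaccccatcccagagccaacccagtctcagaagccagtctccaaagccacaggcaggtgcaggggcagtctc
Krt8, Krt18 and Krt5 held none of the 4 motifs in this window. Cldn3 held 1 GC box, and Cldn4 held 2 GC boxes and 2 AP-1 motifs. RefSeq promoters were found for 26 of the 43 genes, 29 promoters in all. Of these 29, 21 (72.4%) held a GC box, against 35.7% of all 32851 promoters of the same length. The 2 promoters of Wfdc2 overlap, as do those of Ocln, and by gene 19 of the 26 held a GC box. The AP-1 motif was in 4 of the 29 (13.8%, against 7.81% of all promoters) and the ETS motif in 4 (13.8%, against 8.86%). Both promoters of Cldn7 held the ETS motif, so by gene it was in 3 of the 26. The Grainyhead-like motif was in 1 promoter, that of Muc1 (3.45%, against 2.09%). These are matches of letters and not shown to be bound, and none of the matches overlapped in the 5 promoters printed.

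The comparison of co-culture with rest concerned the RNA recovered with CTLs that had met 4T1 cells, and the epithelial genes were abundant at both times. Together they took 0.745% and 0.769% of all counts at 4 h of co-culture and 0.720% and 0.655% at 24 h, against 0.00385% to 0.00881% in the other 6 libraries. After scaling they summed to 6688 and 6960 CPM at 4 h of co-culture and 6511 and 6142 CPM at 24 h, against 54.2 and 54.3 CPM after peptide for 4 h, 71.7 and 80.0 CPM after peptide for 24 h, and 58.1 and 58.5 CPM at rest. The co-culture sums did not overlap those of any other group.

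**Figure D1:**
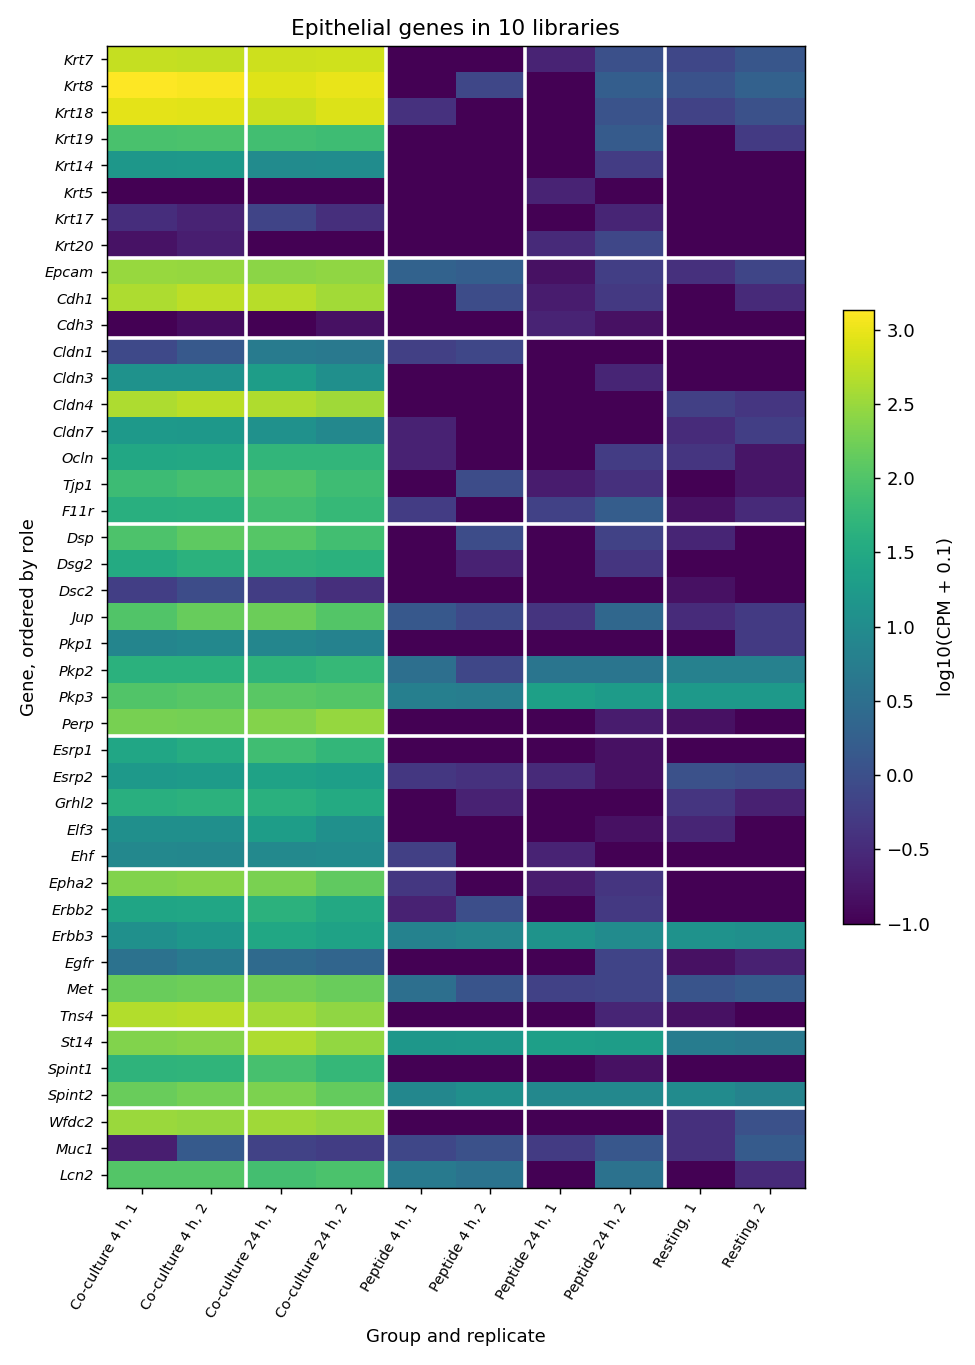
Level of each of the 43 genes (rows, grouped by role) in each of the 10 libraries (columns, co-culture, peptide and resting from left to right), as the colour of log10(CPM + 0.1). The 4 co-culture libraries are high across most rows, and the peptide and resting libraries are near 0 CPM apart from a few rows such as Pkp3, Erbb3, Spint2 and St14.

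Against rest, edgeR's quasi-likelihood test at a Benjamini-Hochberg adjusted p under 0.05 called 36 of the 38 tested genes higher and 0 lower at 4 h of co-culture, where 34.2% of all tested genes were higher and 26.7% lower. At 24 h it called 37 higher and 0 lower, against 36% and 29.3% of all tested genes. DESeq2 gave the same counts at both times, and 0 genes were lower at an unadjusted p under 0.05. Most of these genes had enough counts for the test because of the co-culture libraries, so the counts describe the list and do not support it. The median log2 fold change of the 38 was 9.19 at 4 h and 9.31 at 24 h, or 8.24 and 8.63 with 9 genes of 0 counts at rest set to their lower bounds, and that of all tested genes was 0.05 at both times. Set against the peptide groups, co-culture was higher in 36 of 38 genes and lower in 0 at 4 h (35.1% and 26.3% of all tested genes) and higher in 37 and lower in 0 at 24 h (28.6% and 23.9%). All comparisons at one time share the same co-culture libraries, and both comparisons with rest share the resting ones.

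Keratins gave the highest levels. Krt8, the type II keratin of simple epithelia, had 1355 and 1255 CPM at 4 h of co-culture and 854 and 1007 CPM at 24 h, against 0 and 0.657 CPM after peptide for 4 h, 0 and 1.64 CPM after peptide for 24 h, and 1.01 and 1.85 CPM at rest. Krt18, its type I partner, had 921 and 893 CPM at 4 h of co-culture and 632 and 832 CPM at 24 h, against 0 to 1.04 CPM after peptide and 0.560 and 0.961 CPM at rest. Each co-culture library lay far above every other library for both genes. Krt7, a type II keratin of ducts and glands, had 595 and 575 CPM at 4 h of co-culture and 665 and 681 CPM at 24 h, against 0 and 0 CPM after peptide for 4 h, 0.160 and 0.928 CPM after peptide for 24 h, and 0.672 and 1.17 CPM at rest. The log2 fold changes against rest at 4 h of co-culture were 9.86 ± 0.58 for Krt8 (SE; adjusted p = 1.15e-08), 10.24 ± 0.50 for Krt18 (2.76e-09) and 9.34 ± 0.34 for Krt7 (7.51e-10). Their levels at rest were 0.128%, 0.093% and 0.146% of those in co-culture.

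Transcript levels of the other keratins ranged widely. Krt19, a small type I keratin, ranged from 70.6 to 92.7 CPM in co-culture and from 0 to 1.42 CPM elsewhere. Krt14, a type I keratin of basal cells, ranged from 9.59 to 15.8 CPM in co-culture and had 0 counts at rest, so it was at least 169-fold higher at 4 h. These lower bounds take 3 counts over the 2 reference libraries together. Krt5, the usual type II partner of Krt14 in basal epithelium, had 0 counts in the 4 co-culture libraries, which allows up to 0.0362 CPM over them. Krt17 reached at most 0.602 CPM and Krt20 at most 0.655 CPM in any library. Per kilobase of gene length, type II keratins (Krt5, Krt7, Krt8) summed to 1.24 and 1.18 times the type I keratins (Krt14, Krt17, Krt18, Krt19, Krt20) at 4 h and 1.26 and 1.12 times at 24 h, so the 2 types stood near balance in each co-culture library. Keratin genes are close relatives, and reads shared between them or with pseudogenes may have been assigned in ways not given in the sources used here.

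**Figure D2:**
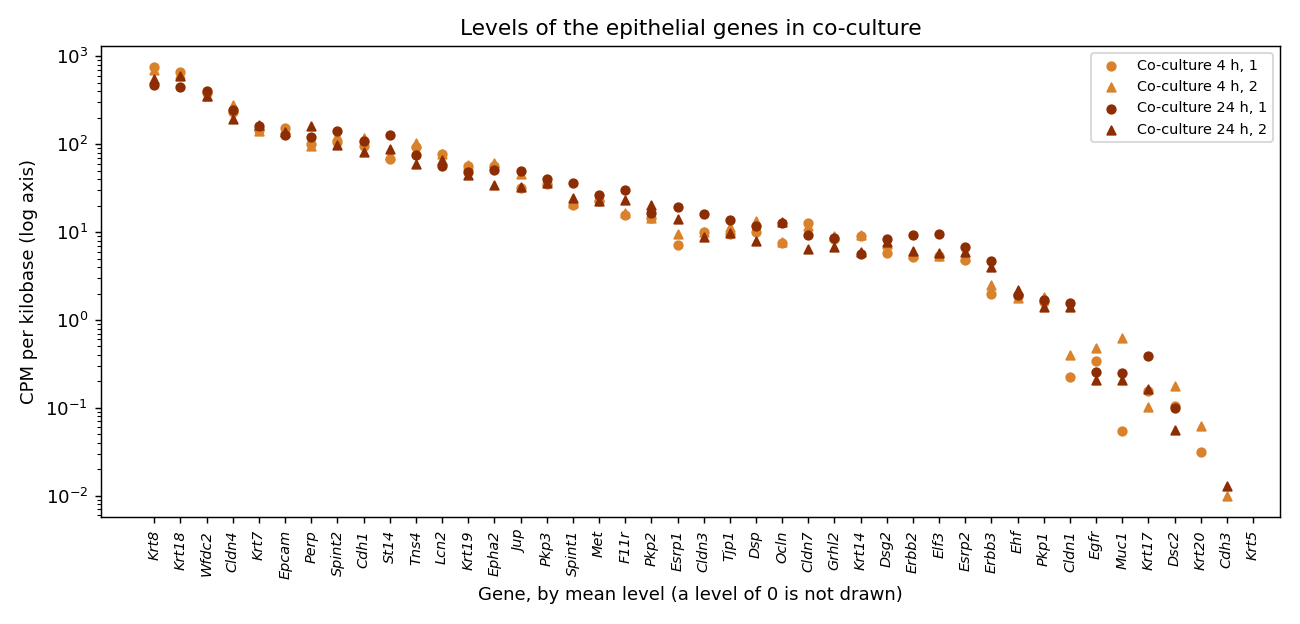
Level per gene in co-culture as CPM per kilobase of gene length (log axis), with each of the 4 co-culture libraries as a point and genes ordered by their mean. Krt8, Krt18 and Wfdc2 are at the top, and Krt17, Dsc2, Krt20 and Cdh3 are at the bottom; Krt5, with 0 counts, has no level.

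In order of level per kilobase over the 4 co-culture libraries, Krt8 averaged 619 ± 127 CPM per kb (SD, n = 4) and Krt18 585 ± 92.9, which overlapped. Wfdc2, a secreted protease inhibitor, averaged 376 ± 23.9, below every Krt18 value, and Cldn4 followed with 237, again without overlap with its upper neighbour. Krt7 (154), Epcam (142), Perp (119), Spint2 (118) and Cdh1 (100.1) came next, and each overlapped the next, while Esrp2 (5.69) lay above every value of Erbb3 (3.31). Krt7, Krt8 and Krt18 together made up 42.9% and 39.1% of the counts of the 43 genes at 4 h of co-culture and 33.1% and 41.0% at 24 h, against 0.223% to 4.50% after peptide and 3.85% and 6.81% at rest.

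Among adhesion genes, Epcam, a surface glycoprotein of epithelium, had 313 and 306 CPM at 4 h of co-culture and 257 and 280 CPM at 24 h, against 1.92 and 1.61 CPM after peptide for 4 h, 0.0532 and 0.491 CPM after peptide for 24 h, and 0.280 and 0.618 CPM at rest. Cdh1, the gene of E-cadherin, had 418 and 519 CPM at 4 h of co-culture and 479 and 357 CPM at 24 h, against 0 to 0.803 CPM in the other 6 libraries. It was 5183 times its resting level at 4 h, with a 95% counting interval of 1773 to 25135, from 3 counts at rest. Cdh3, the gene of P-cadherin, stayed at 0 to 0.160 CPM in all 10 libraries, so the 2 classical cadherins in the list were at opposite ends. Such intervals and bounds cover counting error only.

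Of the 7 tight junction genes, 7 were higher than at rest at both times (34.2% of all tested genes at 4 h and 36% at 24 h). Cldn4, a claudin of many glandular epithelia, had 418 and 501 CPM at 4 h of co-culture and 443 and 350 CPM at 24 h, against 0 in the 4 peptide libraries and 0.504 and 0.343 CPM at rest. It was higher than at rest by 10.04 ± 0.28 at 4 h and 9.82 ± 0.28 at 24 h on the log2 scale (SE; adjusted p = 4.28e-10 and 3.84e-10). Cldn3 beside it on the chromosome had 12.5 and 12.8 CPM at 4 h of co-culture and 20.1 and 11.2 CPM at 24 h, against 0 CPM after peptide for 4 h, 0 and 0.164 CPM after peptide for 24 h, and 0 CPM at rest. Per kilobase Cldn4 was 23.2 and 27.4 times Cldn3 at 4 h and 15.3 and 21.8 times at 24 h. F11r, the junctional adhesion molecule A, had 39.6 and 41.2 CPM at 4 h of co-culture and 75 and 58.6 CPM at 24 h, against 0.442 and 0 CPM after peptide for 4 h, 0.532 and 1.53 CPM after peptide for 24 h, and 0.0560 and 0.206 CPM at rest. Ocln, Tjp1 and Cldn7 ranged from 8.53 to 97.1 CPM in co-culture. Cldn1 was the low member, and its values are given with the times below.

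All 7 tested desmosome genes were higher than at rest at both times (34.2% of all tested genes at 4 h and 36% at 24 h). Perp, a membrane protein of desmosomes, had 192 and 183 CPM at 4 h of co-culture and 228 and 304 CPM at 24 h, against 0 to 0.109 CPM in the other 6 libraries. Jup, plakoglobin, had 102 and 147 CPM at 4 h of co-culture and 157 and 105 CPM at 24 h, against 0.319 to 2.29 CPM after peptide and 0.224 and 0.412 CPM at rest. Plakophilins, which link the cadherin tails to desmoplakin, included 2 genes, Pkp3 and Pkp2, that were also present at rest. Pkp3 had 103 and 113 CPM at 4 h of co-culture and 119 and 107 CPM at 24 h, against 16.7 and 16.9 CPM at rest, and was higher by 2.68 ± 0.16 at 4 h and 2.74 ± 0.16 at 24 h (log2, SE; adjusted p = 1.18e-08 and 7.65e-09). Pkp2 had 42.8 and 43 CPM at 4 h of co-culture and 48.3 and 59.0 CPM at 24 h, against 6.44 and 6.52 CPM at rest, and was higher by 2.73 ± 0.33 and 3.05 ± 0.34 (log2, SE; adjusted p = 1.05e-05 and 3.38e-06). Dsp, Dsg2 and Pkp1 ranged from 6.63 to 126 CPM in co-culture and from 0 to 0.803 CPM elsewhere, and Dsc2 did not exceed 0.829 CPM in any library.

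The 5 splicing and transcription factors were all higher than at rest at both times (34.2% of all tested genes at 4 h and 36% at 24 h). Their levels were lower than those of the most abundant structural genes. Esrp1, which directs epithelial splice forms, had 27.8 and 36.4 CPM at 4 h of co-culture and 73.8 and 55.1 CPM at 24 h, against 0 to 0.0546 CPM after peptide and 0 counts at rest, at least 357-fold higher at 4 h and 702-fold at 24 h. Its relative Esrp2 ranged from 17 to 23.7 CPM in co-culture, against 0.952 and 0.824 CPM at rest. Grhl2, a Grainyhead-like factor of epithelial identity, had 41.1 and 44.4 CPM at 4 h of co-culture and 42.6 and 33.9 CPM at 24 h, against 0 to 0.146 CPM after peptide and 0.336 and 0.137 CPM at rest. Elf3, an ETS factor of epithelium, had 11.3 and 11.1 CPM at 4 h of co-culture and 19.8 and 12.0 CPM at 24 h, against 0 to 0.0546 CPM after peptide and 0.168 and 0 CPM at rest. Ehf, another ETS factor, ranged from 8.06 to 9.82 CPM in co-culture.

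Receptor tyrosine kinases and their adaptor spread widely. Tns4, a focal adhesion adaptor, had 445 and 494 CPM at 4 h of co-culture and 363 and 284 CPM at 24 h, against 0 to 0.164 CPM in the other 6 libraries. Epha2, a receptor for ephrins, had 220.3 and 238 CPM at 4 h of co-culture and 197 and 135 CPM at 24 h, against 0 to 0.368 CPM after peptide and 0 counts at rest. It was at least 2495-fold higher than at rest at 4 h and 1813-fold at 24 h. Met, the receptor for hepatocyte growth factor, had 154 and 169 CPM at 4 h of co-culture and 179 and 155 CPM at 24 h, against 1.06 and 1.44 CPM at rest, and was higher by 7.02 ± 0.32 and 7.07 ± 0.32 (log2, SE; adjusted p = 1.49e-09 and 1.2e-09). Within the EGF receptor family, Erbb2 ranged from 26.3 to 45.9 CPM in co-culture and Egfr from 2.11 to 4.94 CPM. Erbb3 had 11.9 and 15.1 CPM at 4 h of co-culture and 28.6 and 24.1 CPM at 24 h, against 12.7 and 11.3 CPM at rest. The groups overlapped at 4 h (log2 fold change 0.17 ± 0.23, SE; adjusted p = 0.53), whereas both 24 h libraries lay above both resting ones (1.13 ± 0.23, adjusted p = 6.95e-04). Scaled on T cell identity genes, Erbb3 was called higher at 4 h too (1.57, adjusted p = 2.1e-05), where the median of all genes was 1.45.

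The protease and its inhibitors were present together. St14, matriptase, had 221 and 244 CPM at 4 h of co-culture and 413 and 290.0 CPM at 24 h, against 5.32 and 4.53 CPM at rest, higher by 5.55 ± 0.21 and 6.15 ± 0.21 (log2, SE; adjusted p = 4.34e-10 and 2.33e-10). Spint2, a Kunitz inhibitor of such proteases, had 154 and 183 CPM at 4 h of co-culture and 207 and 143 CPM at 24 h, against 9.57 and 6.86 CPM at rest, higher by 4.35 ± 0.24 and 4.4 ± 0.24 (adjusted p = 8.1e-09 and 5.88e-09). Spint1, its relative, had 47.9 and 49.7 CPM at 4 h of co-culture and 83.9 and 56.6 CPM at 24 h, against 0 to 0.0546 CPM after peptide and 0 counts at rest. Per kilobase the 2 inhibitors summed to 1.86 and 1.96 times St14 at 4 h and 1.40 and 1.38 times at 24 h.

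Of the secreted and mucin genes, Wfdc2 had 324 and 303 CPM at 4 h of co-culture and 346 and 304 CPM at 24 h, against 0 CPM in the 4 peptide libraries and 0.280 and 0.961 CPM at rest. Lcn2, lipocalin 2, which binds bacterial siderophores and is also made by neutrophils, had 107 and 106 CPM at 4 h of co-culture and 78.0 and 91.3 CPM at 24 h, against 4.86 and 3.65 CPM after peptide for 4 h, 0 and 3.49 CPM after peptide for 24 h, and 0 and 0.206 CPM at rest. Muc1, a membrane mucin, was the gene that did not follow: it had 0.121 and 1.38 CPM at 4 h of co-culture and 0.556 and 0.462 CPM at 24 h, against 0.663 and 0.949 CPM after peptide for 4 h, 0.426 and 1.20 CPM after peptide for 24 h, and 0.280 and 1.44 CPM at rest. The groups overlapped, and the test called it at neither time (adjusted p = 0.934 and 0.566).

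**Figure D3:**
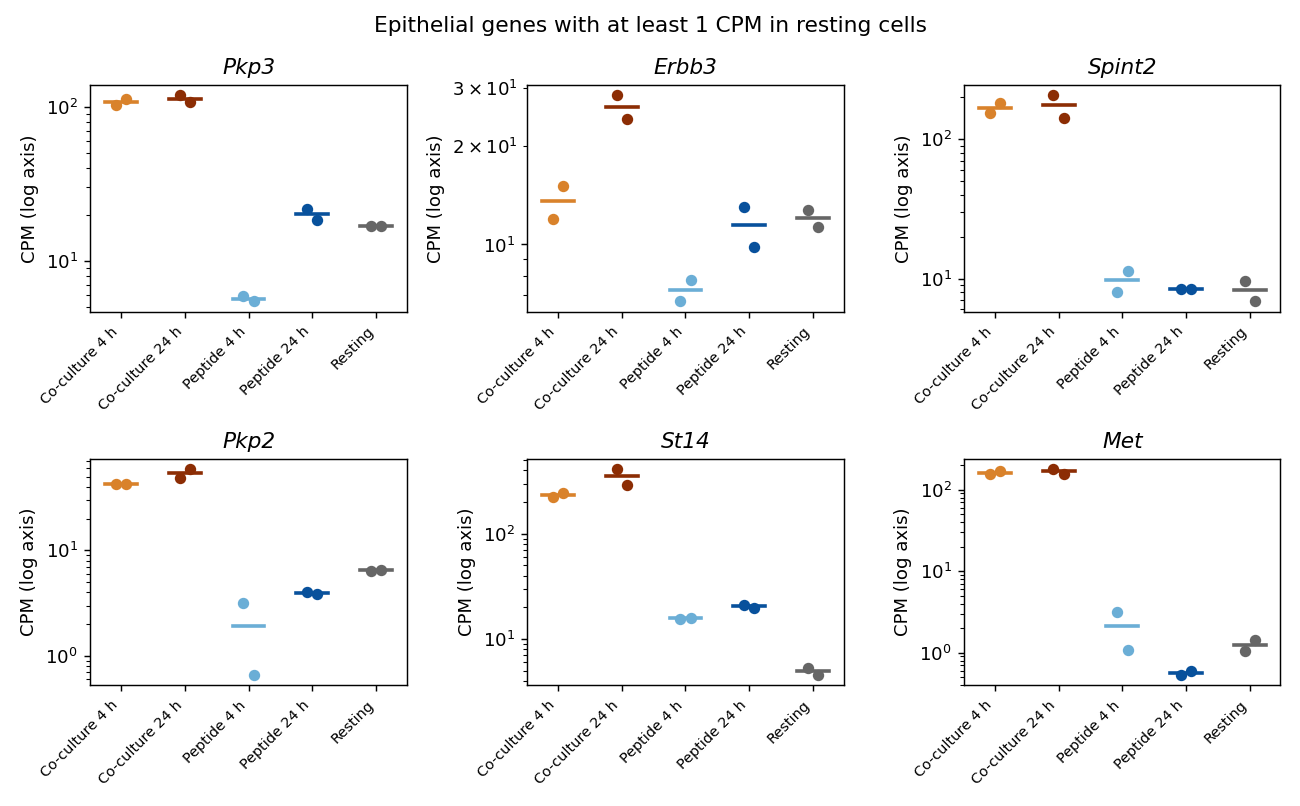
Level in CPM (log axis) in every library of Pkp3, Erbb3, Spint2, Pkp2, St14 and Met, 6 of the 7 genes that averaged at least 1 CPM at rest, with groups along the horizontal axis and each library as a point. The Erbb3 values at 4 h of co-culture overlap the resting ones, and St14 lies higher after peptide than at rest.

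Some of the genes were also measured outside co-culture. Those averaging at least 1 CPM at rest were 7: Krt8, Pkp2, Pkp3, Erbb3, Met, St14 and Spint2. Pkp3, Erbb3, Spint2, Pkp2 and St14 made up 7.97% to 12.5% of the counts of the 43 genes in co-culture, against 72.7% to 95.5% after peptide and 87.4% and 78.9% at rest. The other 36 genes summed to 4646 and 4939 CPM at 4 h of co-culture and 4663 and 4358 CPM at 24 h, against 11.6 and 11.5 CPM after peptide for 4 h, 2.71 and 17.6 CPM after peptide for 24 h, and 5.26 and 9.06 CPM at rest.

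The peptide groups were compared with rest, without tumor cells. Their libraries also held more B cell marker RNA. The 13 markers summed to 483 and 570 CPM at 4 h and 224 and 464 CPM at 24 h, against 3.97 and 4.46 CPM at rest. The part of this difference in the peptide results was not tested. At 4 h, 5 of the 38 genes were higher than at rest and 7 lower, where 28.8% of all tested genes were higher and 30.7% lower. At 24 h, 3 were higher and 5 lower, against 29.2% and 26.1% of all tested genes. Many of the 38 had few or no counts in the peptide and resting libraries, so these counts are not to be read against those shares. The median log2 fold change of the 38 was -0.03 at 4 h and 0.47 at 24 h, against -0.04 and 0.01 over all tested genes. Without the filter on low counts, 11 were higher and 11 lower at 4 h and 9 and 9 at 24 h, and with only the 4 libraries compared, where 13 of the 43 genes entered the test at 4 h and 11 at 24 h, 3 and 4 at 4 h and 1 and 1 at 24 h. Without the first 24 h peptide library 11 were higher at 24 h, without the second 1 was higher and 9 lower, and without the first resting library 1 was higher at 24 h and 3 at 4 h.

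St14 was higher after peptide at both times. It had 15.6 and 15.8 CPM after peptide for 4 h and 21.2 and 19.7 CPM after peptide for 24 h, against 5.32 and 4.53 CPM at rest, which gave log2 fold changes of 1.66 ± 0.20 (SE; adjusted p = 1.16e-05) and 2.05 ± 0.20 (adjusted p = 1.79e-06). Pkp3 was lower at 4 h, with 5.89 and 5.48 CPM after peptide and 16.7 and 16.9 CPM at rest (-1.56 ± 0.17, adjusted p = 4.78e-06), and had 21.9 and 18.3 CPM after peptide for 24 h. Pkp2 had 3.17 and 0.657 CPM after peptide for 4 h, against 6.44 and 6.52 CPM at rest (-1.76 ± 0.41, adjusted p = 0.00227), and 3.99 and 3.87 CPM after peptide for 24 h. Erbb3 was lower at 4 h, with 6.70 and 7.81 CPM after peptide and 12.7 and 11.3 CPM at rest (-0.73 ± 0.24, adjusted p = 0.0187), and had 13.0 and 9.82 CPM after peptide for 24 h. The Erbb3 call was lost without the first peptide library (adjusted p = 0.0789) or the first resting library (adjusted p = 0.088). Spint2 had 8.03 and 11.4 CPM after peptide for 4 h and 8.36 and 8.46 CPM after peptide for 24 h, close to its 9.57 and 6.86 CPM at rest, and Met had 3.17 and 1.10 CPM after peptide for 4 h and 0.532 and 0.600 CPM after peptide for 24 h.

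The other peptide calls rested on few counts. At 4 h of peptide Epcam was higher than at rest (48 counts with peptide, 14 at rest; log2 fold change 2.01 ± 0.48, SE, adjusted p = 0.00269), a call lost without the first resting library (adjusted p = 0.056) and with scaling on T cell identity genes (log2 fold change 1.13, adjusted p = 0.0972). Lcn2 had 116 counts with peptide for 4 h and 3 at rest (adjusted p = 0.00234), Cldn1 had 16 and 0, and Erbb2 had 14 and 0, the last a call lost without the second peptide library (adjusted p = 0.2) or without either resting library (adjusted p = 0.0919 and 0.0626). Krt7, Cldn4 and Wfdc2 were lower at 4 h, with 0 counts after peptide and 29, 14 and 19 counts at rest. At 24 h Cldn4, Cldn7, Grhl2 and Wfdc2 had 0 counts after peptide and 14, 11, 8 and 19 counts at rest, and each was called lower, Grhl2 no longer without the first resting library (adjusted p = 0.0884). Esrp2 was lower at both times, with 9 counts at 4 h of peptide and 5 at 24 h, against 29 at rest. Its call at 4 h was lost without the second peptide library (adjusted p = 0.0938) or the first resting library (adjusted p = 0.091), with DESeq2 (adjusted p = 0.055) and with only the 4 libraries compared (adjusted p = 0.175).

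Genes of other cells moved with some of these traces. After peptide for 4 h, the 14 myeloid markers summed to 226 and 166 CPM, against 49.6 and 45.4 CPM at rest, where 5 of the 14 had 0 counts in each library. The neutrophil genes S100a8 (15.1 and 8.40 CPM) and S100a9 (29.0 and 15.1 CPM) were present beside Lcn2, while both were at 0 at rest. After peptide for 24 h, the second library held 3.49 CPM of Lcn2, 1.42 CPM of Krt19 and 2.29 CPM of Jup, against 0, 0 and 0.319 CPM in the first. In the same library 10 stromal markers summed to 164 CPM, against 94.2 CPM in the first. Their sum was 154 and 139 CPM at rest and 177 and 180 CPM after peptide for 4 h. Of the 10 markers, 9 reached 1 CPM in the second 24 h peptide library and 4 in the first. Only 1 and 2 reached it at rest, and 1 and 2 after peptide for 4 h, so those sums rested on few genes. The second 24 h library also had 30.0 CPM of the collagen gene Col3a1, against 0.160 CPM in the first. The calls of Lcn2 and F11r at 24 h of peptide against rest (adjusted p = 0.0283 and 0.00945) were lost without that library (0.219 and 0.0928), and Lcn2 then lay below rest. They were also lost without the first resting library (0.202 and 0.114), and Lcn2 without the second (0.061) and with DESeq2 (0.0818). The part of these other cells in the traces was not tested.

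**Figure D4:**
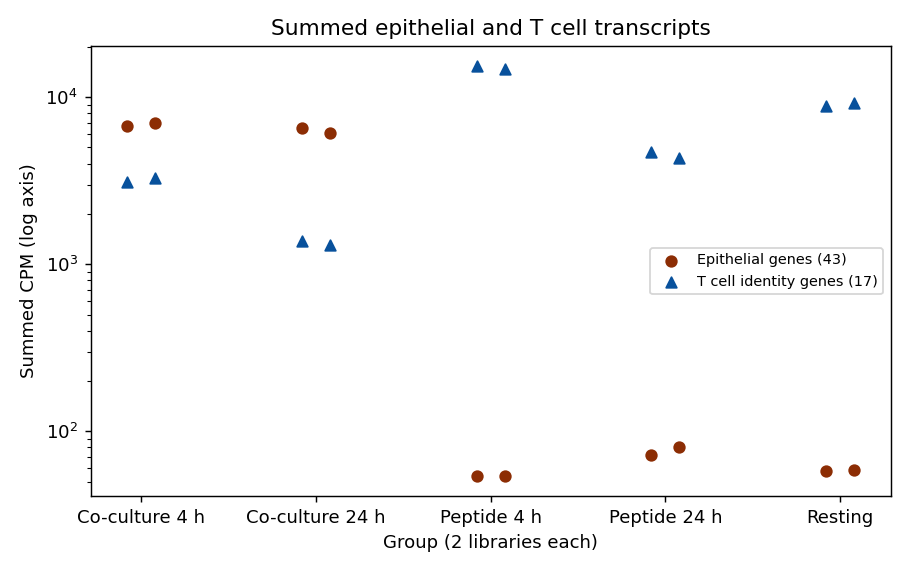
Summed CPM (log axis) of the 43 epithelial genes (circles) and of the 17 T cell identity genes (triangles) in each library, by group. The epithelial sum lies between 6142 and 6960 CPM in the 4 co-culture libraries and between 54.2 and 80.0 CPM in the other 6.

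The direct comparison of co-culture with peptide at the same time gave the following for the genes also present at rest. Pkp3 was higher than after peptide by 4.24 ± 0.18 at 4 h and 2.49 ± 0.15 at 24 h (log2, SE; adjusted p = 8.58e-10 and 2.23e-08), Pkp2 by 4.48 ± 0.39 and 3.77 ± 0.35 (4.82e-07 and 1.02e-06) and St14 by 3.89 ± 0.19 and 4.10 ± 0.19 (2.64e-09 and 1.63e-09). Erbb3 was higher than after peptide by 0.90 ± 0.24 at 4 h and 1.20 ± 0.23 at 24 h (log2, SE; adjusted p = 0.00507 and 6.08e-04), and the 4 h call was lost without the second co-culture library (0.0649). At 4 h the genes not called were Cldn1 and Muc1 (adjusted p = 0.313 and 0.975), and at 24 h Muc1 (0.623).

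Between the 2 times of co-culture the median of the epithelial genes moved little with TMM scaling. Single genes ranged from -0.84 to 2.22 in log2 fold change. At 24 h, 4 of the 38 were higher than at 4 h and 0 lower, where 8.51% of all tested genes were higher and 8.02% lower. At an unadjusted p under 0.05, 8 were higher and 1 lower, and DESeq2 called 5 higher and 1 lower. The median log2 fold change of the 38 was 0.06, against 0.01 over all tested genes. With the libraries scaled on the 17 T cell identity genes, which moved the median of all genes to 1.27, 30 of the epithelial genes were higher, where 72.9% of all tested genes were higher and 1.16% lower. For the 17 T cell identity genes the median was -1.21, with 1 higher and 13 lower. A further 396 genes outside the list, each averaging at least 5 CPM in co-culture and under 0.5 CPM elsewhere, had a median of 0.18, with 30 higher (7.58%) and 19 lower (4.8%). As a ratio of sums, the 43 genes stood at 4.74 and 4.71 times the T cell identity genes at 24 h and at 2.14 and 2.13 times at 4 h. The T cell identity genes also differed between the peptide times, without tumor cells. They summed to 15278 and 14816 CPM at 4 h of peptide and 4678 and 4326 CPM at 24 h. A scaling or ratio on them therefore need not follow T cell content.

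The genes called higher at 24 h than at 4 h were Cldn1, Esrp1, Erbb3 and St14. Cldn1, a claudin, had 5.10 and 4.57 CPM at 24 h and 0.727 and 1.30 CPM at 4 h of co-culture (log2 fold change 2.22 ± 0.60, SE; adjusted p = 0.027), against 0.516 and 0.657 CPM after peptide for 4 h and 0 counts after peptide for 24 h and at rest. Esrp1 had 73.8 and 55.1 CPM at 24 h and 27.8 and 36.4 CPM at 4 h (1.00 ± 0.23, adjusted p = 0.0131), Erbb3 had 28.6 and 24.1 CPM at 24 h and 11.9 and 15.1 CPM at 4 h (0.96 ± 0.22, adjusted p = 0.0108), and St14 had 413 and 290.0 CPM at 24 h and 221 and 244 CPM at 4 h (0.60 ± 0.16, adjusted p = 0.0241). In all 4 genes both 24 h libraries lay above both 4 h libraries. Each of the 4 calls was lost when 1 library was left out. Without the first 24 h library the adjusted p was 0.157 for Cldn1, 0.0933 for Esrp1, 0.0585 for Erbb3 and 0.169 for St14. Without the second it was 0.177 for Cldn1, and the other 3 held. Without the first 4 h library the values were 0.249, 0.155, 0.139 and 0.194, and without the second 0.162, 0.0628, 0.0552 and 0.129, in the same order of genes.

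Esrp1 per kilobase was 2.85 and 2.38 times Esrp2 at 24 h and 1.5 and 1.79 times at 4 h. Keratins were not called between times: the log2 fold change was -0.49 ± 0.36 for Krt8 (SE; adjusted p = 0.413), -0.31 ± 0.30 for Krt18 (0.548) and 0.20 ± 0.21 for Krt7 (0.571). When the 4 co-culture libraries were scaled on the 396 genes instead, Cldn1 (2.08, adjusted p = 0.0338), Esrp1 (0.84, 0.0191) and Erbb3 (0.80, 0.0215) were still called higher. St14 was not (0.42, 0.0579), and Tns4 was called lower at 24 h (-0.70 ± 0.18, adjusted p = 0.0167). Scaled on T cell identity genes, Tns4 was called higher at 24 h (0.72, adjusted p = 0.0121), so its direction depended on the scaling.

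**Figure D5:**
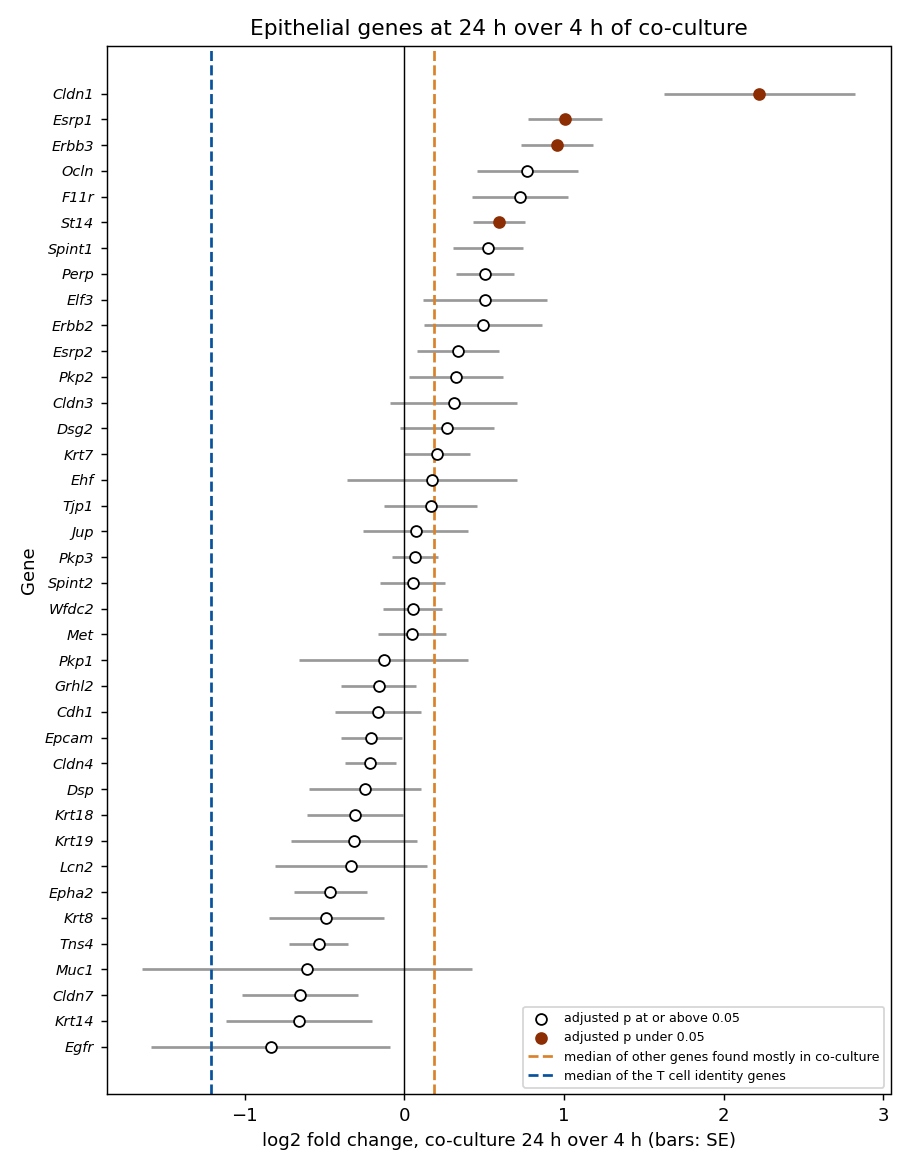
Log2 fold change of each tested gene at 24 h over 4 h of co-culture with its standard error (horizontal axis), genes down the page by size, with dashed lines at the medians of the 396 other genes found mostly in co-culture (0.18) and of the T cell identity genes (-1.21). Filled points are the genes called at an adjusted p under 0.05, which are Cldn1, Esrp1, Erbb3 and St14.

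Related genes outside the 43 are given by list, beside 34.2% of all tested genes higher and 26.7% lower at 4 h of co-culture and 36% and 29.3% at 24 h. At 4 h of co-culture against rest, 8 of 9 hemidesmosome genes were higher and 0 lower, among them Lamb3, a laminin chain (211 CPM in co-culture and 0.312 CPM at rest; log2 fold change 9.38 ± 0.40), and Lama3, another (8.79 ± 0.41). Of 25 tested other junction genes, 22 were higher and 1 lower. The catenin genes Ctnnb1 (986 and 117 CPM; 3.08 ± 0.15) and Ctnnd1 were among the higher, and the lower one was Tjp3 (-1.04 ± 0.34). Other keratins had 4 higher and 0 lower of 5 tested, with Krt16 at 21.8 CPM and 0 counts at rest. Epithelial regulators had 9 higher and 1 lower of 11, with the smallest p-value in Klf5 (7.65 ± 0.48), and Gata3, a factor also of T cells, was the lower one (-0.49 ± 0.19). Scaled on T cell identity genes, Tjp3 stood at 0.36 (adjusted p = 0.361) and Gata3 at 0.90 (adjusted p = 0.00154), so both changed sign. Surface genes had 9 higher and 0 lower of 10, among them Cd9 (8.13 ± 0.38). At 24 h of co-culture against rest the counts higher and lower were 8 and 0 for hemidesmosome genes, 22 and 1 for other junction genes, 4 and 0 for other keratins, 8 and 0 for regulators and 9 and 0 for surface genes.

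Ligands of the receptors in the list were measured alongside them. Of 10 tested, 7 were higher than at rest and 0 lower at 4 h of co-culture, against 34.2% and 26.7% of all tested genes. Hbegf, which binds the EGF receptor, averaged 179 ± 1.10 CPM in co-culture (SD, n = 2) and 3.07 CPM at rest, and Areg, amphiregulin, averaged 79.5 ± 3.66 and 1.42 CPM. At 24 h of co-culture both were below 4 h: Hbegf had 75.8 and 75.9 CPM at 24 h and 179 and 178 CPM at 4 h (log2 fold change -1.24 ± 0.14, SE; adjusted p = 4.1e-05), and Areg 27.7 and 32.6 CPM at 24 h and 76.9 and 82.1 CPM at 4 h (-1.40 ± 0.24, adjusted p = 0.00143). Scaled on T cell identity genes these differences were 0.03 for Hbegf and -0.12 for Areg (adjusted p = 0.903 and 0.674), and scaled on the 396 genes found mostly in co-culture they were -1.40 and -1.55 (adjusted p = 2.7e-05 and 9.58e-04). Egfr, the receptor that both ligands bind, was not called between the times (adjusted p = 0.514).

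Genes tied to mesenchymal transition went both ways. Of 8 tested, 4 were higher and 4 lower at 4 h of co-culture than at rest (34.2% and 26.7% of all tested genes). Fn1, fibronectin, averaged 1499.6 ± 260.1 CPM in co-culture (SD, n = 2) and 2.99 CPM at rest, and Twist1 and Snai1 were also higher. Vim, vimentin, averaged 1414 ± 111 CPM in co-culture (SD, n = 2) and 2027 CPM at rest (log2 fold change -0.52 ± 0.13, adjusted p = 0.00384), and Zeb1, Zeb2 and S100a4 were lower too. At 24 h of co-culture against 4 h, 0 of the 8 were higher and 4 lower (8.51% and 8.02% of all tested genes), Vim by -1.55 ± 0.13 and Fn1 by -1.43 ± 0.34 (log2, SE; adjusted p = 6.18e-06 and 0.0121). Scaled on T cell identity genes, Vim and Zeb2 at 4 h against rest changed sign (0.88 and 0.62, adjusted p = 7.26e-04 and 0.00706), and Zeb1 was not called (-0.46, adjusted p = 0.102). The 4 lower calls between the times were lost under that scaling, with -0.28 for Vim, -0.18 for Fn1, -0.01 for Zeb1 and -0.06 for Zeb2 (adjusted p = 0.178, 0.714, 0.983 and 0.766). With scaling on the 396 genes found mostly in co-culture the 4 calls held. The values in the same order were -1.71, -1.60, -1.43 and -1.49 (adjusted p = 4.05e-06, 0.00596, 2.39e-04 and 3.47e-05).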

How the data were processed

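Polyadenylated RNA of 10 mouse libraries was measured, 2 in each of 5 groups. The authors deposited 1 table of raw read counts per gene with gene lengths and coordinates; the build mm10 and DESeq2 1.36 are named in the submitters' processing notes, while the sources used here name no aligner, counter or strand setting. Counts were fitted with edgeR 4.0.16 in R 4.3.3 (quasi-likelihood F-test, TMM factors, filterByExpr with a minimum count of 10, a mean for each of the 5 groups over the 10 libraries, p-values two-sided and Benjamini-Hochberg adjusted over 14729 genes), for 7 contrasts. The common biological coefficient of variation was 0.159. The steps were tested on simulated data. Bounds against groups with 0 counts use 3 counts over the group, and 95% intervals are exact binomial; both cover counting error only. Total counts were 14104658 to 22910633 per library, and paired libraries differed by more than sampling noise (mean chi-square per gene 6.94 to 47.7).

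The 43 genes and the related and marker lists were chosen with earlier results of these data known. Values of the libraries, or their range where they lie near 0, are given for the 3 genes of highest level per kilobase in each role, those averaging at least 1 CPM at rest, those called after peptide with at least 1 CPM in either group, and those called between co-culture times. Of related lists, up to 3 genes by smallest p-value and direction are named; Vim against rest, S100a8, S100a9 and Col3a1 were chosen after their values were seen. The values of 1 related gene are not reported here. The alternatives tried were DESeq2 1.42.0, other scalings and filters, a fit of the 4 libraries compared, a replicate block and leaving out each library.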

Additional observations from a re-analysis of the deposited data

Results flagged for a closer look

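Among the 43 epithelial genes, 6 at 4 h and 5 at 24 h went opposite ways against rest in the co-culture and peptide groups, higher in co-culture and lower after peptide, with the direct difference between co-culture and peptide also called by edgeR's quasi-likelihood test. At 4 h, Krt7, Cldn4 and Wfdc2 had 0 counts after peptide and were at least 5297-fold, 4258-fold and 2831-fold higher in co-culture. Pkp2, Pkp3 and Esrp2 were higher in co-culture than after peptide at 4 h by log2 fold changes of 4.48, 4.24 and 5.72. At 24 h, Cldn4, Cldn7, Grhl2 and Wfdc2 had 0 counts after peptide and were at least 4934-fold, 130-fold (129.9), 476-fold and 4034-fold higher in co-culture, and Esrp2 was higher by 7.31 on the log2 scale. The falls after peptide were small in counts for all but Pkp2 and Pkp3, since the resting libraries held 8 to 29 counts of the others.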

How the results depend on the processing

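Of 2034 recomputed values for 170 gene results, 1999 kept direction and call, 34 lost the call and 1 reversed, Lcn2 after peptide for 24 h against rest without the second peptide library (-3.83, adjusted p = 0.219; the highest value with a library left out was 7.99). In co-culture, counts higher than rest stayed at 36 at 4 h and 37 at 24 h when each library was left out; against peptide they ranged from 35 to 37 and from 36 to 37. Counts lower ranged from 0 to 1 against peptide at 24 h. Between co-culture times, counts higher (4) were 7 without a filter beyond 1 count, 30 with T cell identity scaling, 6 with only the 4 libraries compared and 0 to 3 with a library left out; counts lower (0) were 1 with DESeq2, 3 without that filter, 2 with only the 4 libraries compared, 1 with scaling on genes found mostly in co-culture and 0 to 2 with a library left out. After peptide for 4 h, counts higher (5) were 11 without the filter, 3 with only the 4 libraries (13 genes tested) and 3 to 7 with a library left out, and counts lower (7) were 11, 4 and 12 (T cell scaling), and 6 to 7. After peptide for 24 h, counts higher (3) were 9, 1 (11 genes tested), 10 (T cell scaling) and 1 to 11, and counts lower (5) were 9, 1 and 5 to 9. Beyond the alternatives' construction, the cause of these shifts was not tested.

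T cell identity scaling moved the median log2 fold change of all genes to 1.45 and 2.71 for co-culture against rest (4 h, 24 h), -0.91 and 0.90 for peptide against rest, 2.41 and 1.81 for co-culture against peptide, and 1.27 between co-culture times, and the share of calls that were higher to 92.5%, 98.3%, 20.5%, 84.1%, 97%, 95% and 98.4%, from 56.1%, 55.2%, 48.4%, 52.8%, 57.2%, 54.5% and 51.5% with TMM. Library totals alone gave 31% for peptide at 4 h against rest (median -0.54) and 79.6% for co-culture against peptide at 4 h (median 0.75). With the replicate number as a block, 3 genes were higher between co-culture times (Cldn1 adjusted p = 0.0508) and no other count changed; same-numbered libraries did not deviate together (r of -0.374 to 0.195), so the numbers were not taken as pairs. Counts of 0 to a few in the peptide and resting libraries limit what could be called between them.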
